A study of Mus musculus with 8 samples.

Results

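Imprinted genes are expressed mainly from the allele of 1 parent, and 42 of them were looked up in RNA sequencing of embryonic mouse ventricles. The list names genes known to be imprinted in the mouse, and 36 of them stood in the processed table of 13869 genes. They comprised 21 paternally expressed genes, 14 maternally expressed genes and Gnas, whose transcripts differ in parental origin. The paternally expressed Kcnq1ot1, Rasgrf1 and Snrpn and the maternally expressed Phlda2, Rian and Slc22a18 were not analysed here. No allele was distinguished in these data, so parental expression is background knowledge and every value is the sum of both alleles.

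The 4 mutant libraries came from ventricles of embryos labelled Mib1flox; TnT-Cre, in which a floxed Mib1 gene is recombined by Cre under the cardiac troponin T promoter, at E14.5. The 4 wild-type libraries came from siblings labelled WT at the same age, and the labels do not say whether those carried a floxed allele or Cre. Hearts were pooled, 16 per genotype into 4 replicates, so each library is a pool, and p values measure the spread between pools. That Cre acts in cardiomyocytes, while endocardial, epicardial and blood cells of the same tissue keep Mib1. Mib1 encodes a ubiquitin ligase that Notch ligands need in order to signal, and its transcript stood at 100 ± 5.32 CPM in mutants and 161 ± 7.48 CPM in wild type (counts per 1000000 of the normalized library size; SD, n = 4 each).

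Imprinting rests on DNA methylation that is set in the egg or sperm and kept in the embryo. Most imprinted genes lie in clusters in which a paternally expressed gene and a maternally expressed neighbour or noncoding RNA share a control region. Many of them act on fetal growth: Igf2 is a paternally expressed growth factor, and Igf2r and Grb10 are maternally expressed genes that restrain its signal. In the developing heart Igf2 comes largely from non-myocyte layers, and a transcript of Ddc that is imprinted in the heart has been found in trabecular myocytes of the mouse.

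Promoter windows were taken from RefSeq (GRCm38.p6), each running from 250 bases before to 50 bases after an annotated start, and 30 of the 36 genes matched at least 1 window. Shown here are the starts of Mest, Igf2r and Ddc, which were called lower in mutants, while Klf14, also called lower, matched no window. The windows differ in CpG content, the substrate of imprint methylation. They sit at annotated starts and were not chosen to cover the control regions of the clusters. CpG dinucleotides are in capitals, and each sequence reads 5′ to 3′ on the strand of the gene.
Mest, upstream start, chr6:30733256-30733555, plus strand: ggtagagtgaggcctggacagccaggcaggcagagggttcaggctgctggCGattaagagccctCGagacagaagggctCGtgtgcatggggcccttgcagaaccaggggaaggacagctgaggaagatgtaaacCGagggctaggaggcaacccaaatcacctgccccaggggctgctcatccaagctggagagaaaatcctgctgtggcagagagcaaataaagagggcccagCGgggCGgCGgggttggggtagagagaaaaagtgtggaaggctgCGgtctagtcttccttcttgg
Mest, downstream start, chr6:30737800-30738099, plus strand: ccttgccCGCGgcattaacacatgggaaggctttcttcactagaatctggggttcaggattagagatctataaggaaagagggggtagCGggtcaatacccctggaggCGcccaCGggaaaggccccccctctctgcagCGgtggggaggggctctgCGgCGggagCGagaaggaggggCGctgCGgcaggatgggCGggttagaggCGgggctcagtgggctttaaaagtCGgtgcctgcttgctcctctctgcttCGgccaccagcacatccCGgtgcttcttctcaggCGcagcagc
Igf2r, chr17:12769657-12769956, minus strand: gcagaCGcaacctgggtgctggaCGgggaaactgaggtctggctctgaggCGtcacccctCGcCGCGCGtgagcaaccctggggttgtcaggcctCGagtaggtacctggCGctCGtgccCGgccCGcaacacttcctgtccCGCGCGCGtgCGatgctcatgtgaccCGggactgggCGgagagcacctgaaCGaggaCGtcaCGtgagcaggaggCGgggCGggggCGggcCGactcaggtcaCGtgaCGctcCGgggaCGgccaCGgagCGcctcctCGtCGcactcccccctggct
Ddc, upstream start, chr11:11898095-11898394, minus strand: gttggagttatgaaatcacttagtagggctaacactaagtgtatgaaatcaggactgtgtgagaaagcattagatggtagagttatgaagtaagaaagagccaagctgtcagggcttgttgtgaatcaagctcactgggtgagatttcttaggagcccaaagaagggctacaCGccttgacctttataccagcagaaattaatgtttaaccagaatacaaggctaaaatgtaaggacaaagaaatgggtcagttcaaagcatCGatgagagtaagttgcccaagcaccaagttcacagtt
Ddc, downstream start, chr11:11890359-11890658, minus strand: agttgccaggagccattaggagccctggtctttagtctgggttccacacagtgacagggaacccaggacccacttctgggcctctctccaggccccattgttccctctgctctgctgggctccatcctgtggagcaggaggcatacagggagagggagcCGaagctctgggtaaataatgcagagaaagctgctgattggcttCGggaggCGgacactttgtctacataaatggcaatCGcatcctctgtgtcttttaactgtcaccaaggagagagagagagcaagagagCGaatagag

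The Igf2r window held 34 CpG dinucleotides, more than 92.3% of all 32851 promoter windows of the same length. The downstream Mest window held 17 and its upstream window 8, against a median of 7 over all windows. The upstream Ddc window held 2 and the downstream one 5, so neither lay in a stretch as rich in CpG as that of Igf2r. A further annotated Mest start, near the downstream one, also had 17. The letters TGCCGC, the core bound by the imprint-keeping protein ZFP57, were searched on both strands. They occurred at 2 places in the downstream Mest window and at 0 in the windows printed for Igf2r and Ddc. They were present in 27.7% of the 47 windows of imprinted genes and in 11.6% of all windows. The letters hold a CpG themselves, and the imprinted windows had a median of 16 CpG dinucleotides, against 7 over all windows. TGGGAA, the core of sites for the Notch effector RBPJ, was at 1 place in the downstream Mest window and at 0 in those of Igf2r and Ddc. It was present in 29.8% of the imprinted windows and 25.6% of all windows. Several windows of 1 gene overlap, and a match of letters is a description of the sequence only.

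Of the 36 imprinted genes, 4 were lower in Mib1 mutant ventricles and 0 were higher at an adjusted p under 0.05 (limma, Benjamini-Hochberg over all 13740 genes tested). The 4 were paternally expressed Mest and Ddc and maternally expressed Igf2r and Klf14. Over all genes tested 2.24% were called, 1.25% lower and 0.99% higher, and over the imprinted genes 11.1% were called. The members were chosen with earlier results of these data known, so these shares cannot test whether imprinted genes change more often than others. An unadjusted p under 0.05 was reached by 13 of the 36, or 36.1%, against 14.8% of all genes. Of these 13, 9 were lower (background 7.85%) and 4 higher (background 6.94%). All 4 mutant libraries lay below all 4 wild-type libraries for 7 imprinted genes (background 4.65%) and above them for 4 (background 4.27%), 11 in all against 8.92% of all genes. In tissue of mixed cells, fewer cells of a type and less RNA per cell cannot be told apart. Without mutant replicate 3, 8 imprinted genes were called instead, 5 lower and 3 higher, and 481 genes in all instead of 308. Without mutant replicate 2 or wild-type replicate 1, 2 or 3, the number over all genes was 186, 145, 147 and 162, and 3 imprinted genes were called each time, 0 higher and 3 lower.

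**Figure D1:**
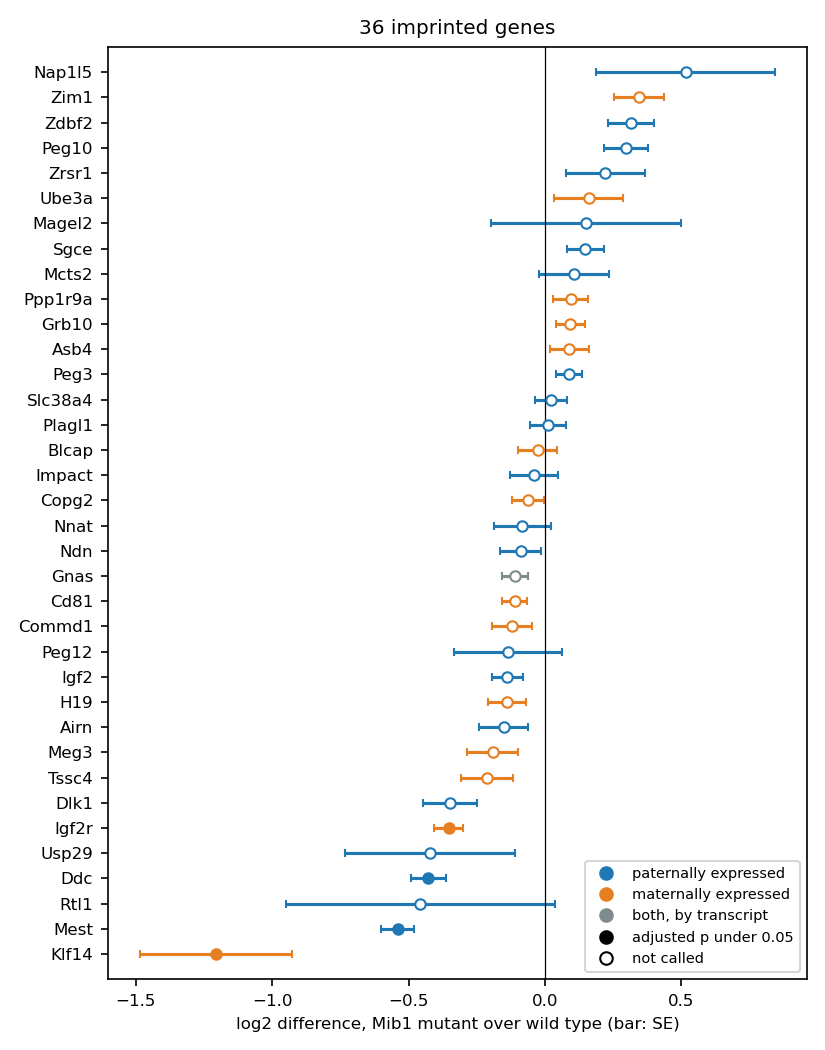
Log2 difference, Mib1 mutant over wild type, of the 36 imprinted genes (points; bars are SE from limma, 4 libraries per group), coloured by parental expression and filled where the adjusted p was under 0.05. The 4 filled points, Klf14, Mest, Ddc and Igf2r, lie below 0 and include genes of both parental classes.

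Mest, which encodes a hydrolase-fold protein abundant in embryonic mesoderm, had the smallest p of the 36. It stood at 1648, 1585, 1402 and 1462 CPM in the mutant libraries, against 2152, 2261, 2124 and 2318 CPM in wild type. The groups were well apart, and the fall was 0.54 ± 0.06 on the log2 scale (SE), or 1.45-fold, with an adjusted p of 0.000153 (limma). The call stood whichever of the 8 libraries was omitted, with adjusted p values up to 0.00141. Mest lies in a cluster on chromosome 6 next to Copg2, a maternally biased gene for a coat protein of Golgi vesicles. Copg2 stood at 121 ± 8.85 CPM in mutants and 126 ± 2.8 CPM in wild type, a log2 difference of −0.06 ± 0.06 (SE), and the groups overlapped. The log2 ratio of Mest to Copg2 was 3.64 to 3.69 in the mutant libraries, against 4.06 to 4.22 in wild type, so the neighbours did not shift by equal amounts. Their exons share 912 bases on opposite strands in the GENCODE M21 annotation, 32.9% of those of Mest, and the labels do not state whether counting used strand.

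Klf14, an intronless gene for a zinc finger transcription factor, lies in the same cluster and is maternally expressed. It was found at 1.28, 0.954, 1.27 and 0.81 CPM in mutants, from 14, 7, 8 and 6 counts, against 2.95, 1.94, 2.6 and 2.38 CPM in wild type, from 20, 17, 16 and 19 counts. The groups did not overlap, but each value rests on few counts. Klf14 fell by 1.21 ± 0.28 on the log2 scale (SE; limma adjusted p = 0.039). Omitting mutant replicate 2 or 4, or any 1 of the wild-type libraries, ended that call, 6 fits of 8, with adjusted p values up to 0.139. Mest and Klf14, called lower from opposite parental classes of 1 cluster, thus differ in how firmly the depth bears them.

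**Figure D2:**
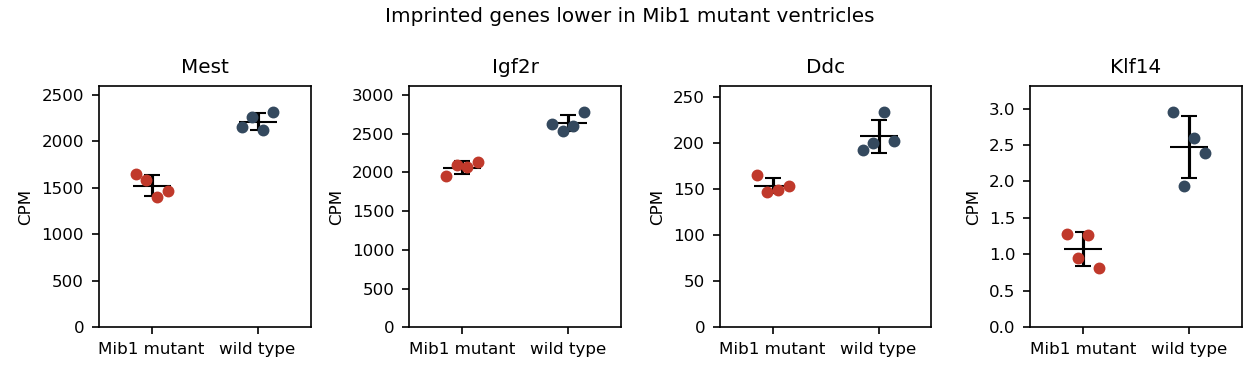
CPM of Mest, Igf2r, Ddc and Klf14 in each library (points, 4 Mib1 mutant and 4 wild type), with the mean and SD in black and each axis starting at 0. In every panel the mutant points lie below the wild-type points, and the Klf14 axis ends near 3 CPM.

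Ddc encodes the decarboxylase that makes dopamine and serotonin. It was measured at 165, 147, 149 and 153 CPM in the mutant libraries and at 192, 200, 233 and 202 CPM in wild type. The highest mutant library stayed under the lowest wild-type one, and the fall was 0.43 ± 0.06 (SE), or 1.35-fold (limma adjusted p = 0.00216). No omission of a single library ended this call (adjusted p at most 0.012). The table counts genes and not transcripts, so the imprinted heart transcript cannot be told apart from others that start elsewhere in Ddc. Grb10, the maternally expressed neighbour of Ddc on chromosome 11, encodes an adaptor that dampens signalling by insulin and insulin-like growth factor receptors. Its libraries gave 2576, 2458, 2289 and 2500 CPM in mutants, against 2348, 2244, 2279 and 2330 CPM in wild type. These groups overlapped (0.09 ± 0.05; adjusted p = 0.441). The log2 ratio of Ddc to Grb10 ran from −4.06 to −3.94 in mutants and from −3.61 to −3.29 in wild type.

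Markers of trabecular myocardium moved in the same libraries as Ddc. Of 11 such markers tested 6 fell, among them Bmp10 (log2 difference −2.29), Nppa (−1.60) and Gja5 (−1.45), and 0 rose. Their summed level was 948 to 1065 CPM in mutants and 2055 to 2151 CPM in wild type, and the median over the 11 was −0.85. Of 7 compact myocardium markers 3 rose, namely Tbx20 (0.41), Fzd2 (0.46) and Hey2 (0.25), and Ntn1 fell (−0.39), with a median of 0.25. The 12 pan-cardiomyocyte markers, among them Tnnt2, Actc1 and Ttn, held 0 calls (4 at an unadjusted p under 0.05) and a median of −0.06. Of the neural markers 6 were tested, with 0 calls (2 at an unadjusted p under 0.05), and their sum was 19.3 to 22.5 CPM in mutants and 20.3 to 26.1 CPM in wild type. The shares over all genes tested were 1.25% called lower, 0.99% called higher and 14.8% at an unadjusted p under 0.05 (limma). The marker lists were chosen with earlier results of these data known. The part of the trabecular and compact markers in the lower Ddc level was not tested.

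Igf2r encodes the mannose 6-phosphate receptor, which carries Igf2 to the lysosome. In mutants it stood at 1950, 2093, 2067 and 2141 CPM, and in wild type at 2629, 2535, 2596 and 2782 CPM. Every mutant library was below every wild-type library, and the fall was 0.35 ± 0.05 (SE), or 1.28-fold (limma adjusted p = 0.00216). It was also called after omission of any single library, with adjusted p values up to 0.013. Airn, the paternally expressed antisense RNA that silences the paternal Igf2r allele, stood at 67.3 ± 9.15 CPM in mutants and 74.3 ± 4.59 CPM in wild type, with a log2 difference of −0.15 ± 0.09 (SE; adjusted p = 0.474). The exons annotated for Airn and Igf2r share 0 bases, although Airn runs antisense to introns of Igf2r. Both estimates were negative, and that of Airn did not pass the test.

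Igf2, the ligand taken up by Igf2r, was the most abundant paternally expressed gene per kb of exon. It was at 4438, 4430, 4920 and 4753 CPM in mutant libraries and at 4944, 5161, 5193 and 5083 CPM in wild type. The groups stood apart by a narrow margin, and the log2 difference of −0.14 ± 0.06 (SE) did not pass the test (adjusted p = 0.28). Quantile scaling, which sets each value by its rank in the library, gave a difference of 0. It cannot show a change in level that leaves the rank unmoved. H19, the maternally expressed noncoding RNA that shares enhancers with Igf2, gave 7021, 6850, 8232 and 8048 CPM in mutants, against 8108, 8398, 8361 and 8235 CPM in wild type. Mutant replicates 1 and 2 were low, replicate 4 lay just below the lowest wild-type library and replicate 3 lay within the wild-type range. The difference was −0.14 ± 0.07 (SE), with a limma adjusted p of 0.392. The log2 ratio of Igf2 to H19 averaged −0.7 ± 0.06 in mutants and −0.7 ± 0.01 in wild type (SD, n = 4 each). The log2 ratio of Igf2 to Igf2r was 1.08 to 1.25 in mutants and 0.87 to 1.03 in wild type. Igf2 RNA was thus higher relative to Igf2r RNA in all mutant libraries, with a negative estimate for each gene. Neither ratio was tested.

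**Figure D3:**
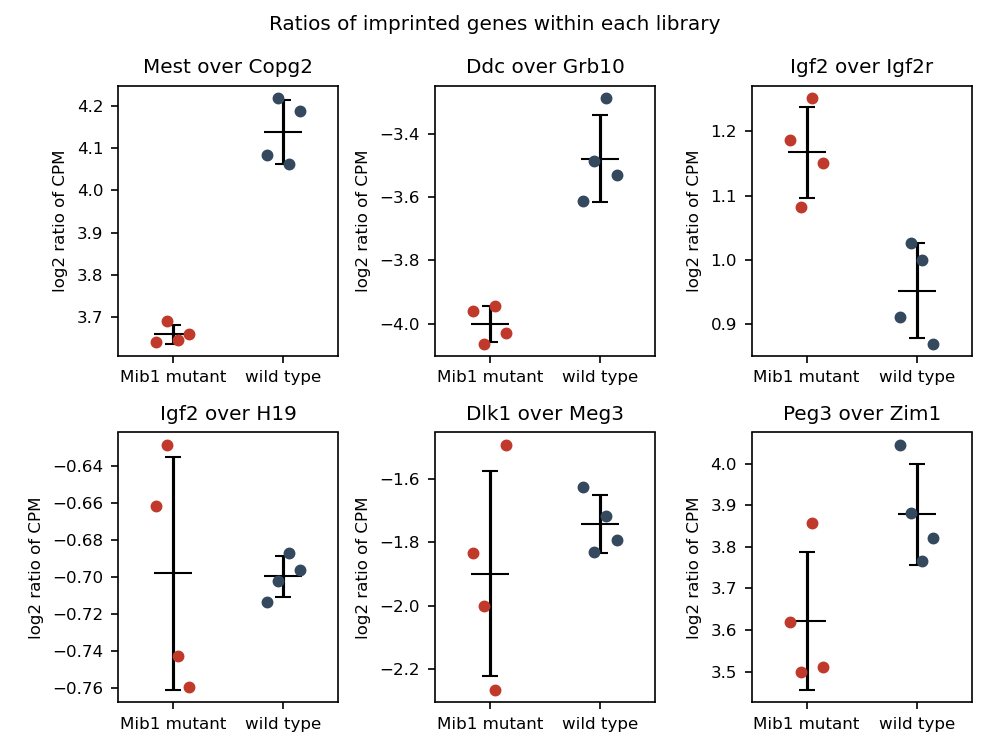
Log2 ratio of CPM of 2 imprinted genes within each library (points; mean and SD in black; 4 Mib1 mutant and 4 wild-type libraries; axes do not start at 0). The groups separate for Mest over Copg2, Ddc over Grb10 and Igf2 over Igf2r, and overlap for Igf2 over H19, Dlk1 over Meg3 and Peg3 over Zim1.

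The wider insulin-like growth factor axis was read from a list of 21 further genes, of which 20 were tested, 1 rose and 2 fell (background 0.99% and 1.25%). Htra1, a secreted protease that cleaves growth factor binding proteins, rose by 0.79 ± 0.11, at 51.4 ± 8.17 CPM in mutants and 29.5 ± 3.43 CPM in wild type (limma adjusted p = 0.00138). Igfbp5, which encodes a binding protein for Igf2, fell to 801 ± 38.7 CPM in mutants, against 1004 ± 46.2 CPM in wild type (−0.33; adjusted p = 0.0035). Igfbp2, another binding protein gene, fell to 11.8 ± 2.3 CPM in mutants, against 20.5 ± 1.72 CPM in wild type (−0.81; adjusted p = 0.00375). These 3 calls held whichever library was omitted. The receptor genes Igf1r and Insr stood at −0.01 ± 0.08 and 0 ± 0.06 (log2 difference and SE), and the second ligand gene Igf1 at −0.01 ± 0.07. The median over the 20 genes was 0, as over all genes tested. Of the 20 genes 7 had an unadjusted p under 0.05 (limma), against 14.8% of all genes tested. The transcripts of the 1 clearance receptor and of 2 binding proteins were thus called lower, and neither signalling receptor was called. The other binding protein genes tested were not called: Igfbp3 stood at 0.26 ± 0.07 (limma adjusted p = 0.0798), Igfbp4 at −0.18 ± 0.06 (adjusted p = 0.129) and Igfbp7 at 0.04 ± 0.12.

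Dlk1 encodes a transmembrane protein related to Notch ligands that lacks their receptor-activating domain. Its mutant libraries held 48.8, 54.6, 53.7 and 70.3 CPM, against 78.9, 71, 73.6 and 63.9 CPM in wild type. Mutant replicate 4 lay inside the wild-type range, and the difference of −0.35 ± 0.1 (SE) did not pass the test (adjusted p = 0.094). Without that library it was −0.45, with an adjusted p of 0.00949. Dlk1 was not called in the 7 other fits with a library left out (limma adjusted p up to 0.27). Meg3, the maternally expressed noncoding RNA of the same cluster on chromosome 12, was at 174, 219, 258 and 198 CPM in mutants and at 244, 252, 242 and 221 CPM in wild type. Mutant replicate 3 was above every wild-type library, while mutant replicates 1, 2 and 4 were below all of them, replicate 2 narrowly. The groups thus overlapped, with a difference of −0.19 ± 0.09 (SE) and a limma adjusted p of 0.361. Without mutant replicate 3 the difference was −0.29, with an adjusted p of 0.0427. Meg3 was not called in the 7 other fits of this kind (limma adjusted p up to 0.659). Rtl1, a retrotransposon-derived gene of this cluster, was near the floor of detection, at 0.573 to 1.81 CPM in mutants and 0.504 to 2.14 CPM in wild type. A floor of 3 counts, for counting error only, corresponded to 0.265 to 0.472 CPM.

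Zim1, Zdbf2 and Peg10 had higher estimates in mutants, none called. Zim1, a maternally expressed zinc finger gene of the Peg3 cluster, was at 42.3, 43.7, 33 and 40.4 CPM in mutants, against 28.3, 31.4, 33 and 32.5 CPM in wild type. Mutant replicate 3 lay just above the highest wild-type library, and the difference was 0.34 ± 0.09 (SE; adjusted p = 0.0724). Zdbf2, a paternally expressed zinc finger gene on chromosome 1, gave 43.8, 40.8, 33.3 and 36.3 CPM in mutants and 30.9, 30.6, 31.6 and 30.1 CPM in wild type. The wild-type libraries were tightly grouped and the mutants spread upward from them (0.32 ± 0.08; adjusted p = 0.0741). Peg10, a paternally expressed gene derived from a retrotransposon, stood at 79, 76, 64.6 and 65.8 CPM in mutants, against 61.2, 51, 60.7 and 59 CPM in wild type (0.3 ± 0.08; adjusted p = 0.0785). All mutant libraries were above all wild-type libraries for these 3 genes, by a narrow margin for Zim1. Without mutant replicate 3 all were called, at 0.43, 0.38 and 0.34 with adjusted p values of 0.00807, 0.0189 and 0.0357. None was called in the 7 other fits with a library left out (limma adjusted p up to 0.221, 0.218 and 0.23).

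These 3 genes have long transcripts, with 7819, 12629 and 6667 exon bases. Over all genes the median log2 difference was −0.06 for the 3050 genes of up to 2000 exon bases and 0.04 for the 2260 genes over 6000. For the 11 imprinted genes over 6000, which include these 3, it was 0.09. The rest of the 11 were Rtl1 (−0.46), Usp29 (−0.42), Igf2r (−0.35), Meg3 (−0.19), Gnas (−0.11), Peg3 (0.09), Ppp1r9a (0.09) and Ube3a (0.16). The part of transcript length in the estimates of Zim1, Zdbf2 and Peg10 was not tested. Sgce, the epsilon-sarcoglycan gene that shares a divergent promoter region with Peg10, was at 39.1, 36.2, 35.7 and 35.9 CPM in mutants and at 33.9, 35, 31.7 and 32 CPM in wild type. Its groups did not overlap, but the difference of 0.15 ± 0.07 (SE) did not pass the test (adjusted p = 0.33). Peg3 itself, a paternally expressed zinc finger gene, stood at 488 ± 25 CPM in mutants and 459 ± 7.97 CPM in wild type (0.09 ± 0.05; adjusted p = 0.433). Its divergent neighbour Usp29 was at 0.973 to 1.54 CPM in mutants and 1.28 to 2.28 CPM in wild type, from at most 17 counts in a mutant library.

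**Figure D4:**
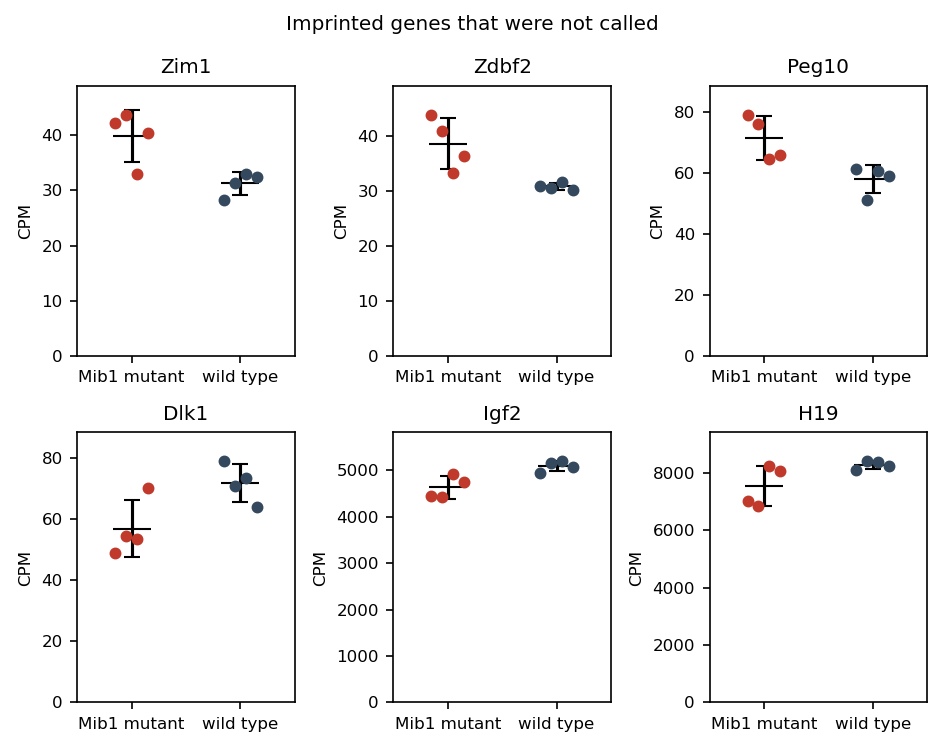
CPM of Zim1, Zdbf2, Peg10, Dlk1, Igf2 and H19 in each library (points; mean and SD in black; axes start at 0), none of which passed the test. Mutant points lie above wild type for Zim1, Zdbf2 and Peg10, below for Igf2, and overlap wild type for Dlk1 and H19.

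The remaining members with an unadjusted p under 0.05 differed little. Cd81, a tetraspanin gene at the end of the Kcnq1 cluster, stood at 432, 424, 454 and 434 CPM in mutants and 460, 458, 482 and 484 CPM in wild type. Its groups did not overlap, yet the difference was only −0.11 ± 0.05 (SE; adjusted p = 0.265). Gnas, the gene of the stimulatory G protein alpha subunit, gave 1195, 1255, 1333 and 1248 CPM in mutants, against 1362, 1348, 1371 and 1345 CPM in wild type. This too was a narrow separation (−0.11 ± 0.05; adjusted p = 0.297). Tssc4 of the Kcnq1 cluster was at 20.6, 21.6, 24.9 and 24.9 CPM in mutants and 25.6, 30.7, 25.9 and 24.4 CPM in wild type, with overlapping groups (−0.21 ± 0.1; adjusted p = 0.317).

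Several abundant imprinted genes gave estimates near 0. Plagl1, a zinc finger regulator of other imprinted genes, stood at 1048 ± 107 CPM in mutants and 1036 ± 49.7 CPM in wild type (0.01 ± 0.07). Slc38a4, an amino acid transporter gene, stood at 269 ± 24.2 CPM in mutants and 264 ± 2.75 CPM in wild type (0.02 ± 0.06). Of the Snrpn cluster, Ndn was at −0.09 ± 0.07, Ube3a at 0.16 ± 0.13, Peg12 at −0.14 ± 0.2 and Magel2 at 0.15 ± 0.35 (log2 difference and SE), and none was called. At other loci Impact was at −0.04 ± 0.09, Nnat at −0.08 ± 0.1, Blcap at −0.03 ± 0.07, Commd1 at −0.12 ± 0.07 and Zrsr1 at 0.22 ± 0.14. Mcts2 stood at 0.11 ± 0.13, Asb4 at 0.09 ± 0.07 and Ppp1r9a at 0.09 ± 0.06. Nap1l5, at 1.53 ± 0.313 CPM in mutants and 1.08 ± 0.313 CPM in wild type, had the highest estimate of the 36 at 0.52 ± 0.33, with an adjusted p of 0.502. Mcts2 is a retrogene copy and Zrsr1 lies within Commd1, sharing 203 exon bases, so their counts may be split with related or overlapping genes.

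The parental classes were then set side by side. Of the 21 paternally expressed genes 2 fell, 11 lay below 0 and the median log2 difference was −0.04. Of the 14 maternally expressed genes 2 fell, 9 lay below 0 and the median was −0.09. Imprinting is not limited to some tissues or transcripts for 18 of the 21 and for 4 of the 14. The others need not be imprinted in the ventricle. Over all genes tested the median was 0, 49.7% lay below 0 and 1.25% were called lower. The paternal median exceeded the maternal one by 0.05, and in single mutant libraries set against the wild-type mean by 0.03 to 0.07. That difference was 0.025 without mutant replicate 1 and 0.028 without wild-type replicate 1, and 0.0804, 0.071 and 0.0853 without mutant replicate 2, mutant replicate 4 and wild-type replicate 3. It was 0.0216 over genes with a mean of at least 5 CPM and 0.0876 under quantile scaling. Without genes imprinted in some tissues or transcripts only it was 0.103, with 18 paternally and 4 maternally expressed genes left. Under quantile scaling the paternal median was 0, the value of Igf2 in that fit. Leaving out 1 library gave paternal medians from −0.08 to 0.01, with the sign turned without mutant replicate 2 (0.01), mutant replicate 4 (0.00286) or wild-type replicate 3 (0.01). Both classes held genes that fell and genes with positive estimates, and a difference between the classes was not tested.

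Imprinted RNA made up a large share of the libraries through a few genes. Together the 36 genes held 2.23, 2.23, 2.4 and 2.37% of all counts in the mutant libraries, against 2.5, 2.57, 2.57 and 2.54% in wild type. The mutant shares were all lower, and H19, Igf2, Igf2r, Grb10 and Mest had the highest CPM of the 36, with a positive estimate for Grb10 and negative ones for the others. Per kb of exon, H19 led at 3297 ± 308 CPM per kb in mutants and 3620 ± 57.5 in wild type (SD, n = 4 each), rank 12 of 13314 genes in both groups. Igf2 followed at 883 ± 46.1 CPM per kb in mutants and 971 ± 21.1 in wild type. Mest, at 549 ± 40.4 in mutants and 797 ± 32.9 in wild type, moved to rank 77 in mutants, against rank 49 in wild type. Grb10 came next, at 479 ± 23.7 in mutants and 448 ± 9.27 in wild type, then Cd81, at 285 ± 8.32 in mutants and 307 ± 9.14 in wild type, and Igf2r, at 232 ± 9.12 in mutants and 297 ± 11.9 in wild type. In wild type Cd81 and Igf2r, neighbours in this order, differed by less than the SD of Igf2r. Lengths are those of all exons in the GENCODE M21 basic annotation, which need not match the transcripts that were quantified.

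**Figure D5:**
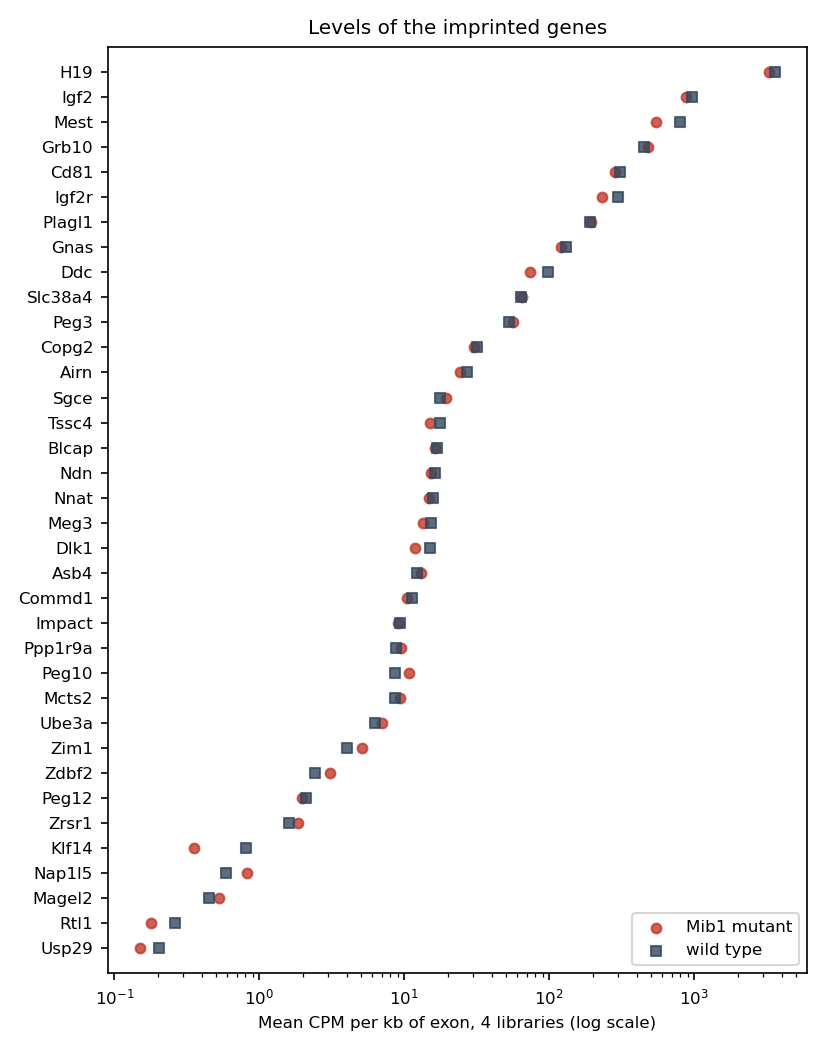
Mean level per kb of exon of the 36 imprinted genes on a log scale (circles, Mib1 mutant; squares, wild type; 4 libraries each), ordered by the wild-type level. H19, Igf2, Mest and Grb10 stand at the top, at 3297, 883, 549 and 479 CPM per kb in mutants and 3620, 971, 797 and 448 in wild type, and Usp29 and Rtl1 at the bottom.

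Other imprinted genes outside the 36 gave 1 call. Of all genes tested 2.24% were called and 14.8% had an unadjusted p under 0.05 (limma). Among 11 tested of 20 further maternally expressed genes Cdkn1c, an inhibitor of cyclin-dependent kinases in the Kcnq1 cluster, fell to 215 ± 19.7 CPM in mutants, against 268 ± 17.1 CPM in wild type (−0.32; limma adjusted p = 0.0221). That call ended in 5 of 8 fits, on omission of mutant replicate 2 or 4 or wild-type replicate 1, 2 or 3. The median of the 11 was −0.01. Among 4 tested of 6 further paternally expressed genes 0 were called (0 at an unadjusted p under 0.05), with the smallest p at Gab1 (0.08 ± 0.05). Genes that set, keep or remove DNA methylation or act on imprinted chromatin were examined as well. Of 20 such genes tested 0 were called by limma (2 at an unadjusted p under 0.05), and Tet1, which oxidizes methylated cytosine, had the smallest p, at 69.6 ± 5.55 CPM in mutants and 59.6 ± 3.86 CPM in wild type (0.22 ± 0.07; adjusted p = 0.143). The maintenance methyltransferase gene Dnmt1 stood at −0.01 ± 0.05, Uhrf1 at −0.11 ± 0.05, Zfp57 at 0.03 ± 0.07 and Trim28 at 0.03 ± 0.05.

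Depth was 6307634 to 11506082 counts per library. Markers of cell types other than myocytes also moved: 5 of 12 endothelial and endocardial markers fell (sum 1396 to 1446 CPM in mutants and 1633 to 1685 CPM in wild type), as did 3 of 12 macrophage markers (75.4 to 94 CPM in mutants and 112 to 136 CPM in wild type). Of 10 erythroid markers tested 2 fell (1981 to 3252 CPM in mutants and 3022 to 4119 CPM in wild type), and of 8 smooth muscle and pericyte markers 2 rose (1554 to 1709 CPM in mutants and 1226 to 1403 CPM in wild type). Of all genes tested 1.25% were called lower, 0.99% were called higher and 14.8% had an unadjusted p under 0.05 (limma). The 10 epicardial markers held 0 calls (4 at an unadjusted p under 0.05), and of 10 fibroblast and cushion markers 1 fell. The part of these markers in the levels of Mest, Igf2r and Igf2, which non-myocyte cells also express, was not tested. Mutant replicate 1, the deepest library, was the highest mutant for 17 of the 36 imprinted genes (47.2%) and for 29.9% of all genes tested.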

How the data were processed

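Polyadenylated RNA of pooled ventricles was sequenced from 1 end, per the labels' protocols. The submitters' processing notes name cutadapt 1.2.1, RSEM 1.16, Bowtie2 0.12.7 (version as named), limma, edgeR and the build mm9, with no roles. The deposited values are a score: in every library they equalled a log2 CPM with a prior of 0.5 counts times a constant that made the column sum to 1000000. Division by the constant gave log2 CPM, and 100% of the counts behind it came out whole within 0.001 counts. The labels do not state how the authors selected genes.

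A table of gene identifiers gave symbols for 13428 of 13869 genes, and exon lengths came from GENCODE M21. After removal of genes whose log2 CPM averaged below 0, 13740 entered a limma fit (limma 3.58.1, R 4.3.3; eBayes with a trend, genotype as the only term, two-sided). Benjamini-Hochberg adjustment ran over all of them, with a threshold of 0.05. Log2 differences put the mutant on top, and low genes are drawn toward 0 by the prior. All 36 genes passed the filter. The fit was tested on simulated data. Values per library are given for members with an unadjusted p under 0.05 and the 2 most abundant per kb of each class. Their cluster partners are given per library, by mean and SD or by range. The members and lists were chosen with earlier results of these data known. Alternatives covered pseudocounts (0.1 and 1 CPM), filters, scaling, variance models, voom weights, a replicate block, omission of genes imprinted in some tissues or transcripts only, and each library left out.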

Additional observations from a re-analysis of the deposited data

Results flagged for a closer look

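In 6 of 72 groups of 4 libraries, 1 library lay far from the other 3 by Dixon's ratio of gap to range, where chance gives about 1 in 20. Mutant replicate 1 had Sgce at 39.1 CPM, against 35.7 to 36.2 in the other mutants. Wild-type replicate 3 had Airn at 67.5 CPM, against 76.2 to 77.2. Wild-type replicate 1 had Ppp1r9a at 120 CPM, against 114 to 115, and Rtl1 at 0.504 CPM from 3 counts, against 1.94 to 2.14. Wild-type replicate 2 had Copg2 at 122 CPM, against 127 in each of the others, and Slc38a4 at 268 CPM, against 262 to 263. None of these genes was called.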

How the results depend on the processing

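Mest, Igf2r and Ddc were called lower in all 11 other fits and all 8 fits with a library left out. The number of imprinted genes called was 3 to 8 with a library left out and 3 to 6 otherwise, 6 (2 higher, Zim1 and Peg10) with robust eBayes. Klf14 was not called with the replicate block (adjusted p = 0.0667) and was not tested at a mean of at least 5 CPM. Over all genes 179 were called with no trend and 145 to 481 with a library left out. The paternal median was 0 under quantile scaling, the value of Igf2 in that fit, and −0.0788 to 0.00788 with a library left out. Without genes imprinted in some tissues or transcripts only, 4 maternally expressed genes were left. The maternal median was then −0.165 and the paternal minus maternal median 0.103. That difference was 0.0216 at a mean of at least 5 CPM, 0.0876 under quantile scaling and 0.025 to 0.0853 with a library left out. The causes were not tested. Libraries with the same replicate number correlated across genes at −0.04 to 0.1 after removal of group means. Of the 4 mutant libraries 0 resembled its own number best. These values cannot show whether equal numbers share an origin. With the replicate block 3 imprinted genes were called, 0 higher and 3 lower, and over all genes 104 higher and 136 lower. Over the 15 imprinted genes given per library by rule, counted per gene and fit, 7 calls were lost and 6 gained, with 0 reversed. Those lost were all of Klf14, and those gained were of Zim1, Peg10, Zdbf2 or Dlk1. Outside these, Meg3 was called without mutant replicate 3, and Cdkn1c was not called in 5 of 8 fits with a library left out and in 1 other. Depth limits Klf14, Rtl1, Usp29, Nap1l5 and Magel2, which had few counts per library.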
